A study of Homo sapiens with 12 samples.

Results

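The 39 genes described here are targets of the transcription factor NRF2: glutathione, thioredoxin, NADPH, aldo-keto reductase, conjugation, iron and efflux genes, with 3 genes that act on the NRF2 pathway itself. They were taken by gene name from a count table of 57500 genes. Each of the 39 names matched 1 row, and all 39 were among the 27029 genes that passed the filter on low counts and were tested. The set was assembled after values of HCC1806 cells had been seen, in which genes of this kind were lower after depletion of the protein PACT. The HCC1806 depletion values of the 39 genes are therefore given as a description without a test, and the tests are those of MDA-MB-468 cells and of the difference between the cell lines.

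The study depleted PACT, a double-stranded RNA binding protein encoded by PRKRA, with CRISPR-Cas9 in HCC1806 and MDA-MB-468, established cell lines of triple-negative breast cancer, and its title concerns PACT as a suppressor of the kinase PKR. In HCC1806 the control cells carried the guide sgC1, in MDA-MB-468 the guide sgNTA, and the depleted cells of both lines carried sgPACT-2. Each of these 4 groups had 3 libraries of total RNA from which rRNA had been removed. All groups thus carried Cas9 and a guide, and the labels used here do not say whether the cells were pools or clones, or whether replicates came from separate cultures, so that p-values measure the spread between these libraries only.

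NRF2, encoded by NFE2L2, is held in the cytoplasm by the adaptor KEAP1, which directs it to degradation. Oxidants and electrophiles modify KEAP1, NRF2 then accumulates, enters the nucleus and, with small MAF proteins, binds antioxidant response elements near its target genes, where BACH1 competes with it. The targets make and recycle glutathione and thioredoxin, supply NADPH, reduce carbonyls and quinones, conjugate and export the products, and handle haem and iron. In many carcinomas the pathway is active without a stressor through changes in KEAP1 or NFE2L2.

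The letters of the core of the antioxidant response element, TGACNNNGC, were searched on both strands of the RefSeq promoter windows (GRCh38.p14, 250 bases before to 50 bases after each start). Windows were found for 30 of the 39 genes, 40 in all. The core was present in 13 of these 40 windows (32.5%), belonging to 12 genes, against 13.3% of all 35116 windows. Of the 15 matches, 3 (in GSTP1, ME1 and PIR) also held the letters TGANTCA, which AP-1 factors bind. The 250 bases before the start are shown for 5 of the genes with a match, to show the letters searched and what surrounds them; the match is in capitals, and the sequences read 5′ to 3′ along the gene's strand. The genes are GCLM (chr1:93909431-93909680, minus strand, match beginning 34 bases before the start), GPX2 (chr14:64942746-64942995, minus, 122 bases), TXNRD1 (a downstream start, chr12:104286782-104287031, plus, 102 bases), ME1 (chr6:83431052-83431301, minus, 137 bases) and GSTP1 (chr11:67583562-67583811, plus, 66 bases).
GCLM: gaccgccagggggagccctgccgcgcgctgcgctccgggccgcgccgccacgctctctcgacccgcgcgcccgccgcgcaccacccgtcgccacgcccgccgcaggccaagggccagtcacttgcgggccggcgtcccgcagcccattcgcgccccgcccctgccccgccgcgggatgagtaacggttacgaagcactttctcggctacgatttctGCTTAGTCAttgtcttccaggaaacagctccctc
GPX2: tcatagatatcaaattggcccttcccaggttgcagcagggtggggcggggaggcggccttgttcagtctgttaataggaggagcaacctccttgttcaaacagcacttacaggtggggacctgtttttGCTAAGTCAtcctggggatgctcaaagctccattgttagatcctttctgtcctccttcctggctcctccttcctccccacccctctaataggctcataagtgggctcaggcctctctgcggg
TXNRD1: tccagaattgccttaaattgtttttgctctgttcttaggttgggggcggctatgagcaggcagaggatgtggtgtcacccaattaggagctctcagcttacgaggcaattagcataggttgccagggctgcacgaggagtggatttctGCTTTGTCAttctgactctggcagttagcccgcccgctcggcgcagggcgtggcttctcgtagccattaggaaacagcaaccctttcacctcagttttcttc
ME1: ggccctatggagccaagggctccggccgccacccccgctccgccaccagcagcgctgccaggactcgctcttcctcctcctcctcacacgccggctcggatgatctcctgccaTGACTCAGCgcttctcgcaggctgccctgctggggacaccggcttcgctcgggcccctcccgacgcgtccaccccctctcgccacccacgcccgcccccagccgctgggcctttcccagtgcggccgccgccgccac
GSTP1: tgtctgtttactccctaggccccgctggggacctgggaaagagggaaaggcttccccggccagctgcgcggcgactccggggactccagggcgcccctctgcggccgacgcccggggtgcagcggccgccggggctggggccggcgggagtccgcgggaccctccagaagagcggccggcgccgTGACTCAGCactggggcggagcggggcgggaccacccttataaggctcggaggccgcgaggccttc
A match is a description of these letters and not a mapped binding site. Of these 5 genes, GPX2 had the largest difference between the lines of all members, and GCLM differed by less than the spread between control and depleted HCC1806 cells, as given further on. The 12 genes with the core in a window had a median log2 fold change after depletion of -0.51 in HCC1806 and -0.07 in MDA-MB-468, and the 18 genes with windows but no core had medians of -0.43 and -0.02.

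The 6 HCC1806 libraries held 18640633 to 24704877 counts and the 6 of MDA-MB-468 34581754 to 44790741, while the members' share of the counts was lower in MDA-MB-468, at 0.533% to 0.599%. HCC1806 replicates scattered more: the biological coefficient of variation was 0.204 when that line was fitted alone and 0.0936 for MDA-MB-468. Levels are given as CPM, counts scaled to a common library size with TMM factors, always in the order of replicates 1, 2 and 3. Where 2 sets of values are joined by "against", control cells come before depleted cells of a line, and HCC1806 before MDA-MB-468. Differences are given as log2 values with their standard error (SE), from 1 edgeR quasi-likelihood model of all 12 libraries. Adjusted p-values are from that model, corrected by Benjamini-Hochberg across the 27029 genes, and the threshold was 0.05. The targeted transcript, PRKRA (ENSG00000180228, GRCh38 chr2:178431414-178451512, minus strand), stood at 78.6, 82.6 and 72.1 CPM in the HCC1806 controls and at 37.5, 36.1 and 37.3 in the depleted cells, without overlap. In MDA-MB-468 the values were 41.1, 45.9 and 46.9 against 39.2, 35.5 and 41.6, which overlapped, with a log2 difference of -0.20 (SE 0.10, adjusted p 0.958); that PACT was depleted in this line is taken from its label. The epithelial genes EPCAM and CDH1 were present in all groups and PGR was at most 0.16 CPM. The other epithelial markers that were listed and the receptor genes ESR1 and ERBB2 are not reported here. The summed level of 8 marker genes of other cell types was 32.7 to 45.3 CPM in HCC1806 controls and 40.1 to 53.3 in depleted cells, and 114 to 128 and 96.3 to 104 in MDA-MB-468; CD14 made up most of it in MDA-MB-468, at a mean of 98.7 CPM in the controls, and 1 to 3 of the 8 had no count in a library. What part these markers had in the members' values was not tested.

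In HCC1806 most NRF2 targets were lower in PACT-depleted cells than in control cells, and the haem-degrading enzyme gene HMOX1 was higher. The log2 fold change was negative for 36 of the 39 genes, against 48.5% of all genes tested, with a median of -0.48 over the members and 0.01 over all genes; the positive values were those of HMOX1, GCLM and CBR3, and with library size as the only scaling SRXN1, AKR1B1, SQSTM1 and OSGIN1 were above 0 as well. Genes of every enzymatic role were among those lower. By the medians of the roles the feedback and the efflux genes were the least different, with the iron genes close to the efflux genes. Of the 39 genes, 18 were past the threshold (2.49% of all genes), 17 of them lower (1.32% of all genes) and 1 higher (1.16% of all genes). Because this contrast led to the choice of the genes, nothing is read from these counts or from those by role that follow. In these bulk libraries, fewer cells of a type and less RNA per cell cannot be told apart.

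The 3 depleted HCC1806 libraries shared the sign of their difference from the controls for most members. Its size varied between the libraries in genes such as AKR1C2, GCLC and IDH1. Against the mean of the controls on the log2(CPM + 0.5) scale, the median of the 39 genes was -0.40, -0.36 and -0.43 in depleted replicates 1, 2 and 3. Below 0 were 37, 32 and 37 members (50.1%, 49.6% and 47.1% of all genes). Each control library set against the other controls gave a median of 0.00, 0.06 and -0.15. In 31 genes all 3 depleted libraries lay below the control mean, in 1 gene (HMOX1) all lay above it, and in 7 the signs were mixed. The same count was not made over all genes. The CPM of the groups did not overlap for 25 genes, 24 of them lower in depleted cells (8.17% of all genes) and 1 higher (8.51% of all genes). The lowest of the 6 libraries was depleted replicate 1 for 16 members (22.2% of all genes) and depleted replicate 3 for 17 (18.8% of all genes). Without depleted replicate 1, the smallest of the libraries, the median was -0.42 and 21 genes were past the threshold (6.15% of all genes in that fit). All 39 genes together took 0.873%, 1.01% and 0.884% of the counts in the controls and 0.638%, 0.787% and 0.758% in the depleted cells.

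**Figure D1:**
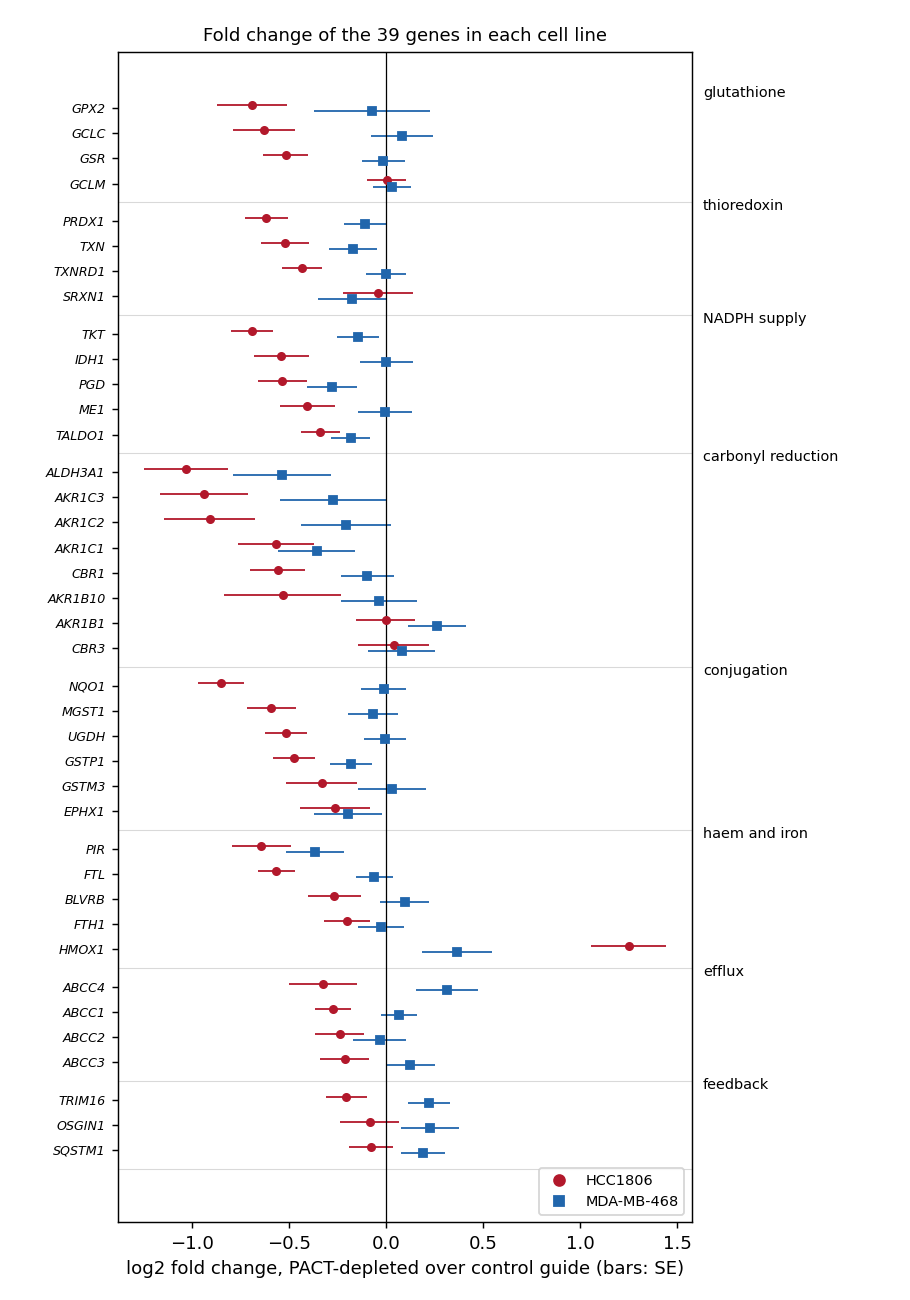
Log2 fold change after PACT depletion (x axis) of each of the 39 NRF2 targets in HCC1806 and MDA-MB-468, grouped by role on the y axis; points are estimates of the edgeR model and bars 1 SE. In HCC1806, 36 of 39 points lie below 0 and HMOX1 stands alone at 1.25, while in MDA-MB-468 the points scatter around 0 with a median of -0.03.

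Among the glutathione genes, GCLC, GSR and GPX2 were lower in depleted HCC1806 cells and GCLM was not. GCLC encodes the catalytic subunit of the enzyme that makes the first bond of glutathione, and it stood at 266, 321 and 253 CPM in control and 122, 216 and 204 in depleted cells, a log2 fold change of -0.63 (SE 0.16). The groups did not overlap, but depleted replicate 1 was far below the other depleted libraries, and without it the value was -0.42. GCLM, the modifier subunit of the same enzyme, stood at 33.5, 33.7 and 29.7 CPM in control and 31.8, 33.2 and 32.1 in depleted cells, a log2 fold change of 0.00 (SE 0.10). The subunits of this 1 enzyme thus had different values, with the 6 GCLM libraries mixed among each other. GPX2, a glutathione peroxidase of epithelia, stood at 64.5, 83.3 and 76.6 CPM in control and 44.4, 44.1 and 50.3 in depleted cells (log2 -0.69, SE 0.18), with every depleted library below every control. GSR, which regenerates glutathione with NADPH, had a log2 fold change of -0.52 (SE 0.12), also without overlap. Past the threshold were 2 of these 4 genes, GCLC and GSR, both lower (1.32% of all genes).

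Of the thioredoxin genes, TXN, its reductase TXNRD1 and the peroxiredoxin PRDX1 were lower and the sulfiredoxin SRXN1 was not. PRDX1 stood at 176, 177 and 156 CPM in control and 124, 111 and 96.3 in depleted cells, a log2 fold change of -0.62 (SE 0.11). TXNRD1 stood at 509, 418 and 425 against 352, 337 and 311 CPM (log2 -0.43, SE 0.10), and TXN at 58.2, 55.7 and 67.8 against 49.9, 40.0 and 36.9 (log2 -0.52, SE 0.12). In each of these 3 genes all depleted libraries were below all controls. SRXN1, which repairs overoxidised peroxiredoxin, measured 8.96, 8.73 and 12.0 against 8.62, 11.8 and 8.48 CPM with overlap; 84.7% of its 50-base sequences also occur in another annotated gene that overlaps it, so its counts are uncertain, and so are those of PRDX1 in part, which shares 21.0% with other genes.

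The 5 genes grouped under NADPH supply were lower without overlap in HCC1806 (8.17% of all genes), with log2 fold changes from -0.69 to -0.34. Of these, TKT and TALDO1 belong to the pentose phosphate pathway but do not themselves yield NADPH. TKT, the transketolase of the pentose phosphate pathway, stood at 338, 415 and 424 CPM in control and 218, 266 and 245 in depleted cells and was 1.61-fold lower (log2 -0.69, SE 0.11). PGD, which yields NADPH in that pathway, stood at 171, 157 and 147 against 125, 119 and 83.6 CPM (log2 -0.54, SE 0.13), and IDH1, a cytosolic NADPH-producing dehydrogenase, at 50.8, 45.0 and 47.6 against 24.0, 34.3 and 40.1 (log2 -0.54, SE 0.14). PGD was lowest in depleted replicate 3 and IDH1 in depleted replicate 1, so that the order of the depleted libraries differed from gene to gene. The malic enzyme gene ME1 had -0.41 (SE 0.14) and the transaldolase gene TALDO1 -0.34 (SE 0.10); of the 5 genes, 2 were past the threshold (1.32% of all genes).

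Carbonyl-reducing and aldehyde-oxidising genes held both the lowest and some of the least different members. ALDH3A1, an aldehyde dehydrogenase, stood at 98.8, 121 and 146 CPM in control and 35.7, 58.2 and 85.0 in depleted HCC1806 cells and was 2.04-fold lower (log2 -1.03, SE 0.22), the lowest log2 fold change of the 39; without depleted replicate 1 it was -0.77. The neighbouring aldo-keto reductase genes of chromosome 10, which reduce steroids and other carbonyls, were lower to different extents. AKR1C3 (ENSG00000196139, GRCh38 chr10:5035354-5107686, plus strand) stood at 112, 152 and 86.6 CPM in control and 40.5, 76.5 and 65.8 in depleted cells, 1.92-fold lower (log2 -0.94, SE 0.23). AKR1C2 (ENSG00000151632, GRCh38 chr10:4987400-5018031, minus strand) stood at 358, 498 and 317 against 109.5, 262 and 252 CPM (log2 -0.91, SE 0.23, and -0.61 without depleted replicate 1). AKR1C1 (ENSG00000187134, GRCh38 chr10:4963253-4983283, plus strand) stood at 185, 237 and 136 against 85.3, 154 and 137 CPM (log2 -0.57, SE 0.20). In all 3 genes control replicate 2 was the highest and depleted replicate 1 the lowest library, and the groups overlapped in AKR1C1 only. AKR1C1 and AKR1C2 share 28.6% and 38.9% of their 50-base sequences with other genes and AKR1C3 4.53%, so that reads of the first 2 cannot be assigned with certainty.

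Of the aldo-keto reductases of chromosome 7, AKR1B1 had like levels in both groups, and AKR1B10 was too low for a precise value. AKR1B1, aldose reductase, stood at 52.0, 61.4 and 42.6 CPM in control and 47.1, 62.8 and 45.9 in depleted HCC1806 cells, a log2 fold change of 0.00 (SE 0.15). AKR1B10, which reduces retinal and lipid aldehydes, stood at 1.13, 2.24 and 1.44 against 0.490, 1.34 and 1.37 CPM (log2 -0.53, SE 0.30). Both genes overlapped between the groups. The carbonyl reductase gene CBR1 was lower without overlap (log2 -0.56, SE 0.14), while CBR3 was not (log2 0.04, SE 0.18); CBR3 shares 35.7% of its 50-base sequences with an overlapping antisense gene and CBR1 16.5% with other genes.

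NQO1, GSTP1, MGST1 and UGDH, of the 6 genes of quinone reduction, epoxide hydrolysis and conjugation, were lower in depleted HCC1806 cells and past the threshold (1.32% of all genes). NQO1 (ENSG00000181019, GRCh38 chr16:69706996-69726951, minus strand), the quinone reductase that is a standard readout of NRF2, stood at 135, 107 and 103 CPM in control and 72.6, 62.9 and 55.7 in depleted cells. These are means of 115 ± 17.0 and 63.7 ± 8.48 CPM (SD, n = 3 each), 1.81-fold lower with a log2 fold change of -0.85 (SE 0.12). It was the 1 member past the threshold when HCC1806 was fitted alone (0.315% of all genes in that fit). NQO1 shares 15.3% of its 50-base sequences with other genes, so that part of its count is uncertain. GSTP1, a glutathione transferase, stood at 342, 352 and 369.7 against 276, 256 and 231 CPM (log2 -0.48, SE 0.11), MGST1, a membrane-bound one, at 327, 262 and 256 against 183, 224 and 154 (log2 -0.59, SE 0.13), and UGDH, which makes the donor sugar of glucuronidation, at 61.6, 62.4 and 55.4 against 40.1, 41.1 and 44.0 (log2 -0.52, SE 0.11). The groups did not overlap in these 4 genes. They overlapped in the epoxide hydrolase gene EPHX1 (log2 -0.26, SE 0.18, and -0.04 without depleted replicate 1) and in the glutathione transferase gene GSTM3 (log2 -0.33, SE 0.18).

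HMOX1 and the ferritin light chain gene FTL, both of iron handling, had opposite differences in HCC1806. HMOX1 (ENSG00000100292, GRCh38 chr22:35380361-35394214, plus strand) encodes haem oxygenase 1, which frees iron from haem, and stood at 8.76, 9.89 and 6.86 CPM in control and 14.1, 21.8 and 24.6 in depleted cells. The means were 8.50 ± 1.53 and 20.2 ± 5.42 CPM (SD, n = 3 each), 2.38-fold higher (log2 1.25, SE 0.19), with every depleted library above every control. FTL (ENSG00000087086, GRCh38 chr19:48965301-48966878, plus strand), the most abundant of the 39 transcripts per length in this line, stood at 2657, 2738 and 2587 CPM in control and 1638, 1959.9 and 1792 in depleted cells. It was 1.48-fold lower (log2 -0.57, SE 0.10) without overlap. The ferritin heavy chain gene FTH1 stood at 921, 1083 and 862 against 739, 881 and 871 CPM (log2 -0.20, SE 0.12) and overlapped, with control replicate 3 below depleted replicates 2 and 3. PIR, an iron-binding nuclear protein, stood at 17.7, 21.0 and 19.5 against 10.0, 12.8 and 14.4 CPM (log2 -0.64, SE 0.15), and the biliverdin reductase gene BLVRB was at -0.27 (SE 0.14). Counted by length, FTL was 6.67, 5.85 and 6.94 times FTH1 in the HCC1806 controls and 5.13, 5.14 and 4.76 times in the depleted cells, without overlap; FTL shares 18.3% of its 50-base sequences with other genes and FTH1 57.4%, so that part of both counts is uncertain.

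Efflux and feedback genes had the smallest median differences in HCC1806, -0.26 and -0.09, with 0 of 4 and 0 of 3 past the threshold (2.49% of all genes). The median of the iron genes, -0.27, was close to that of the efflux genes. The multidrug resistance proteins ABCC1, ABCC2, ABCC3 and ABCC4, which export conjugates, had log2 fold changes of -0.27 (SE 0.09), -0.24 (SE 0.13), -0.21 (SE 0.13) and -0.33 (SE 0.18), and the groups did not overlap in ABCC1 only. SQSTM1, the autophagy adaptor that binds KEAP1, stood at 488, 449 and 401 CPM in control and 442, 451 and 374 in depleted cells (log2 -0.08, SE 0.11). OSGIN1 (log2 -0.09, SE 0.15) and TRIM16 (log2 -0.20, SE 0.11) completed this group, and TRIM16 was lower without overlap; SQSTM1 shares 20.3% and TRIM16 46.6% of its 50-base sequences with other genes.

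**Figure D2:**
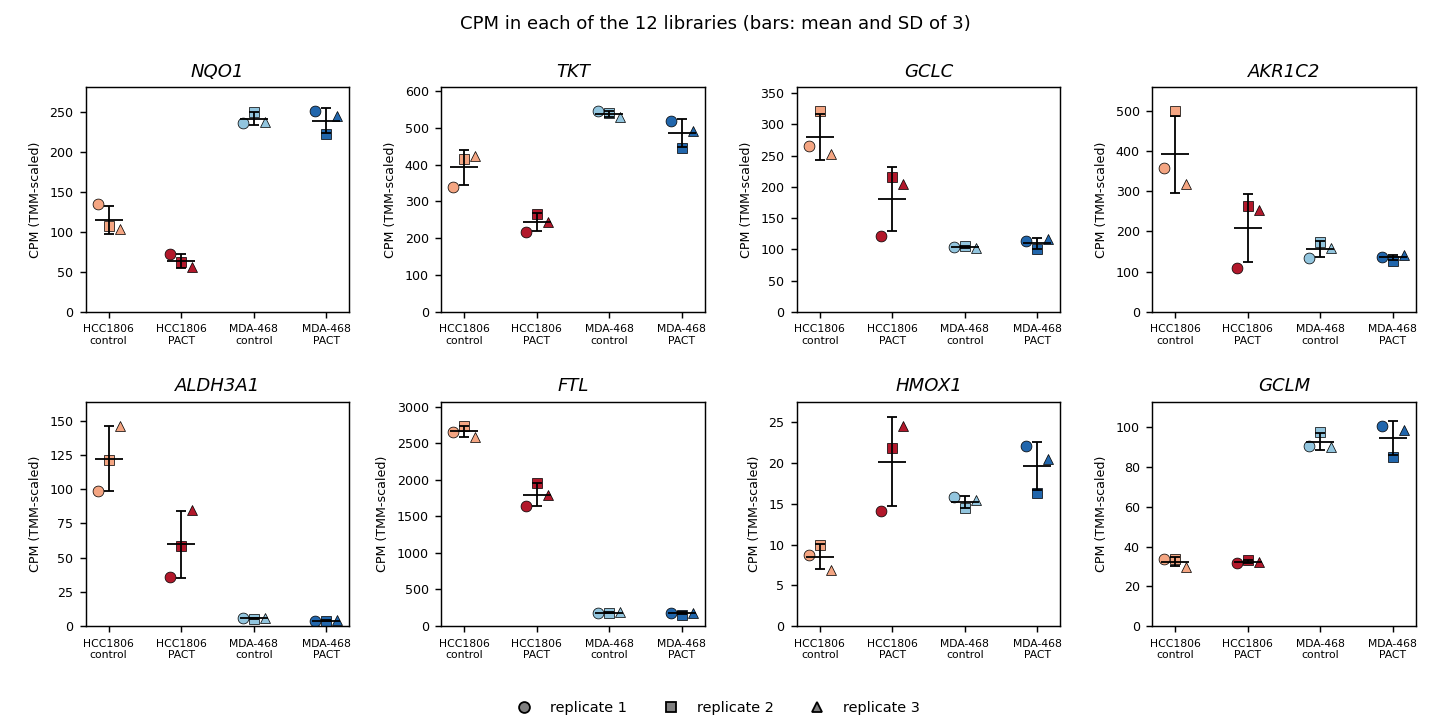
CPM of 8 NRF2 targets (y axis, linear, 1 panel per gene) in each of the 12 libraries, with 1 column of 3 points per group and the mean and SD as a bar. In HCC1806 the depleted libraries of NQO1, TKT, GCLC, AKR1C2, ALDH3A1 and FTL lie below the controls, those of HMOX1 lie above them and those of GCLM lie among them.

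How many HCC1806 members were past the threshold depended on the spread and scaling used. It was 1 with HCC1806 fitted alone, 8 with library size as the only scaling, which shifted all genes by 0.12 (2.93% of all genes), 8 without control replicate 1 (1.03% of all genes) and 24 with a block for the replicate number (7.2% of all genes). With the line alone and that block together it was 18 (2.84% of all genes). The median of the members moved less, to -0.36 with library size only.

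In MDA-MB-468 no NRF2 target passed the threshold after the PACT guide in the main model, which pooled the spread of both lines and held no replicate block. The median of the members was close to that of all genes. In edgeR 0 of the 39 genes passed (0.17% of all genes), and DESeq2 also called 0 (0.418% of all genes). At an unadjusted p under 0.05 there were 3 members (5.27% of all genes), PIR, PGD and ALDH3A1, each with a negative value (2.03% of all genes). The median of the 39 was -0.03, against -0.01 over all genes, and 25 of 39 values were negative, against 50.9% of all genes. With the line fitted alone, which gives it its own smaller spread, 2 members passed (1.51% of all genes). With a block for the replicate number added to that fit 10 passed (4.82% of all genes): AKR1B1, HMOX1, ABCC4, SQSTM1 and TRIM16 were higher and PGD, TALDO1, AKR1C1, AKR1C2 and EPHX1 lower.

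The 3 members with the smallest p-values had lower means in depleted MDA-MB-468 cells without passing. PIR stood at 11.8, 11.4 and 11.2 CPM in control and 10.4, 8.03 and 8.24 in depleted cells, a log2 difference of -0.37 (SE 0.15, adjusted p 0.83). PGD stood at 205, 204 and 206 against 185, 162 and 159 CPM (log2 -0.28, SE 0.13, adjusted p 0.929), and ALDH3A1 at 5.88, 5.05 and 6.09 against 3.85, 3.43 and 4.46 (log2 -0.54, SE 0.25, adjusted p 0.942). In each of these 3 genes the depleted libraries lay below all controls. Over all alternatives the adjusted p ranged from 0.0514 to 1 for PIR, from 7.07e-05 to 1 for PGD and from 0.0504 to 1 for ALDH3A1.

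The next 3 by p-value had higher means in depleted cells. TRIM16, a ubiquitin ligase of the NRF2 pathway, stood at 39.3, 38.1 and 35.1 CPM in control and 48.2, 39.7 and 43.2 in depleted MDA-MB-468 cells (log2 0.22, SE 0.11, adjusted p 0.954). HMOX1 stood at 15.8, 14.4 and 15.4 against 22.0, 16.4 and 20.5 CPM (log2 0.37, SE 0.18, adjusted p 0.958), and ABCC4 at 28.8, 27.2 and 23.3 against 31.8, 29.6 and 37.4 (log2 0.32, SE 0.16, adjusted p 0.96). These are the 3 members whose depleted libraries all lay above all controls (6.2% of all genes), and 7 members lay wholly below (6.94% of all genes). For TRIM16, HMOX1 and ABCC4 depleted replicate 2 was close to the highest control. The highest control and that library stood at 39.3 and 39.7 CPM for TRIM16, 15.8 and 16.4 for HMOX1, and 28.8 and 29.6 for ABCC4.

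Of the genes lower in depleted HCC1806 cells, NQO1, TKT, GCLC, FTL, PRDX1 and GPX2 had log2 differences of -0.15 to 0.08 in MDA-MB-468. Those of ALDH3A1, AKR1C2, AKR1C3 and PIR, also among the lowest in HCC1806, were further below 0, as given in other paragraphs. None of these genes passed the threshold. In TKT all depleted libraries lay below all controls (6.94% of all genes). NQO1 stood at 236, 251 and 237 CPM in control and 251, 222 and 245 in depleted MDA-MB-468 cells (log2 -0.01, SE 0.12, adjusted p 1). TKT stood at 544, 540.1 and 529 against 519.5, 446 and 492 CPM (log2 -0.15, SE 0.11, adjusted p 1), and GCLC at 103, 105 and 103 against 113, 100.1 and 116 (log2 0.08, SE 0.16, adjusted p 1). FTL and NQO1 overlapped between the groups, as did GCLC, and FTL stood at 181, 176 and 189.9 against 185, 158 and 181 CPM (log2 -0.06, SE 0.10, adjusted p 1). PRDX1 stood at 255, 253 and 255 against 254, 209 and 244 CPM (log2 -0.11, SE 0.11, adjusted p 1), and GPX2, with 18 to 47 counts in a library, at 1.09, 1.43 and 0.674 against 0.513, 1.26 and 1.23 (log2 -0.07, SE 0.30, adjusted p 1). The difference of the depletion effect between the lines was not tested, because the HCC1806 values had been used to choose the genes.

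The aldo-keto reductase genes gave negative values on chromosome 10 and a positive one for AKR1B1 in MDA-MB-468, none past the threshold. AKR1C1 stood at 58.0, 71.9 and 59.7 against 46.6, 46.4 and 54.9 CPM (log2 -0.36, SE 0.20, adjusted p 1), with all depleted libraries below all controls. AKR1C2 stood at 134, 173 and 159.6 against 137, 127 and 141 CPM (log2 -0.20, SE 0.23, adjusted p 1), and AKR1C3 at 3.07, 4.47 and 5.17 against 3.14, 2.98 and 4.43 CPM (log2 -0.27, SE 0.27, adjusted p 1). AKR1B1 stood at 134, 128 and 107 against 165, 125 and 153 CPM (log2 0.26, SE 0.15, adjusted p 1). These last 3 genes overlapped between the groups. With the line fitted alone, PGD and AKR1C1 were the members that passed, with adjusted p of 0.0327 and 0.0357; for AKR1C1 the range over all alternatives was 1.41e-05 to 1.

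By role, the medians in MDA-MB-468 were 0.22 for the feedback genes, 0.10 for efflux, 0.01 for glutathione, -0.03 for iron, -0.04 for conjugation, -0.14 for thioredoxin and -0.15 for both the NADPH and the carbonyl genes. The depleted libraries were not alike. Replicate 2 had a median over the members of -0.17, with 31 of 39 genes below the control mean (53.2% of all genes). Replicates 1 and 3 had 0.03 and 0.03, with 14 and 17 below (47.5% and 50.5% of all genes). Replicate 2 was the lowest of the 6 libraries for 25 members (20.9% of all genes). In 23 genes the signs of the 3 depleted libraries were mixed, in 10 all were below and in 6 all above the control mean. These signs were not counted over all genes.

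**Figure D3:**
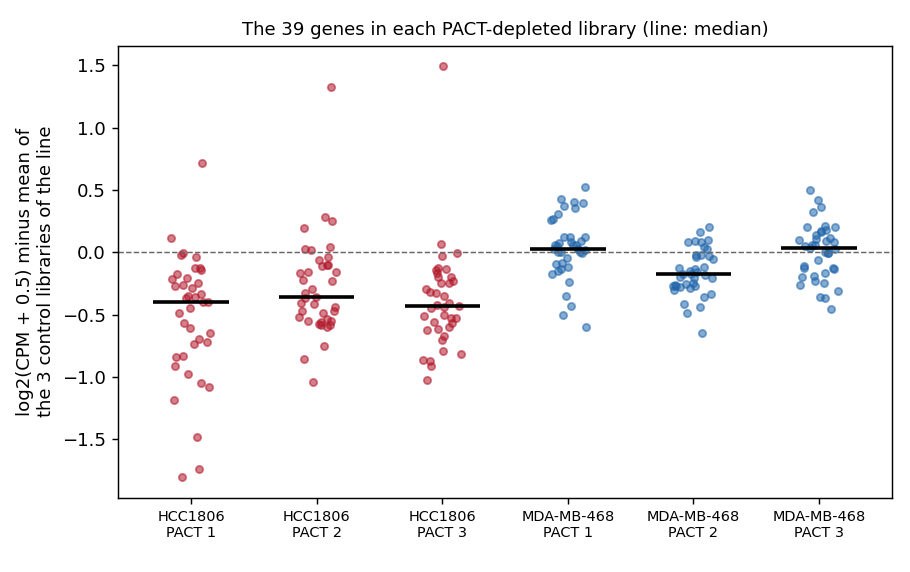
Log2 difference of each depleted library from the mean of the 3 controls of its line (y axis, log2(CPM + 0.5) scale) for the 39 NRF2 targets, 1 point per gene and 1 column per depleted library, with the median as a line. The medians are -0.40, -0.36 and -0.43 in HCC1806 and 0.03, -0.17 and 0.03 in MDA-MB-468.

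Basal levels of most NRF2 targets differed between HCC1806 and MDA-MB-468, in both directions. Between control cells, 35 of the 39 genes passed the threshold (74.2% of all genes), 18 higher in MDA-MB-468 (34.2% of all genes) and 17 lower (40.1% of all genes). A difference of at least 1 on the log2 scale was held by 22 of these (56.4% of all genes). By the larger differences the share of members was close to that of all genes, in lines where most genes differ. TXN, SRXN1, MGST1 and TRIM16 did not pass. The control guides differed as well, so that line and guide cannot be told apart, and this comparison shares its control libraries with both depletion comparisons. Scaling moves it: with library size only or with a filter at a mean of 50 counts, the values of all genes shifted by -0.25 and -0.31, 34 members passed, 14 higher and 20 lower, and PGD, TKT, CBR1 and CBR3 lost their call. TXN, MGST1 and TRIM16 gained a call in each of these fits. Calls were also lost for TALDO1 in 7, SQSTM1 in 4 and CBR3 in 1 of the 12 fits without 1 library.

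Genes with high HCC1806 levels that were far lower in MDA-MB-468 came from several roles. GPX2 showed the largest difference: 64.5, 83.3 and 76.6 CPM in HCC1806 controls against 1.09, 1.43 and 0.674 in MDA-MB-468 controls, from 39, 47 and 27 counts, 71.2-fold lower (log2 -6.15, SE 0.25, adjusted p 4.52e-13). AKR1C3 was 27.6-fold lower at 3.07, 4.47 and 5.17 CPM (log2 -4.78, SE 0.27, adjusted p 4.1e-11), and ALDH3A1 21.5-fold lower at 5.88, 5.05 and 6.09 CPM (log2 -4.42, SE 0.25, adjusted p 4.74e-11). Each MDA-MB-468 library was below each HCC1806 library in these genes, which were named for their large differences. AKR1C1 (log2 -1.56, SE 0.20, adjusted p 1.86e-06) and AKR1C2 (log2 -1.33, SE 0.24, adjusted p 7.41e-05), the neighbours of AKR1C3, were lower by less, and AKR1C2 still stood at 134, 173 and 159.6 CPM in MDA-MB-468 controls.

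Ferritin subunits, by contrast, differed in opposite directions. FTL was 14.6-fold lower in MDA-MB-468 (log2 -3.87, SE 0.11, adjusted p 5.26e-15) and FTH1 was 2.25-fold higher (log2 1.17, SE 0.12, adjusted p 9.48e-08). Per length, as RPKM (reads scaled by library size and exon length), FTL stood at 3030.5 ± 86.2 and FTH1 at 471 ± 56.2 in HCC1806 controls, and FTL at 208 ± 8.18 and FTH1 at 1059 ± 54.6 in MDA-MB-468 controls (SD, n = 3 each). FTL was thus the more abundant of the 2 in HCC1806 and FTH1 in MDA-MB-468, where the ratio of FTL to FTH1 was 0.18 to 0.21 over the 6 libraries. Together the ferritin genes made up 40.8% to 42.6% of the counts of all 39 members in the HCC1806 libraries and 34.9% to 37.8% in those of MDA-MB-468. The iron-releasing HMOX1 was 1.79-fold higher in MDA-MB-468 controls (log2 0.84, SE 0.19, adjusted p 0.000713), BLVRB 3.03-fold higher (log2 1.60, SE 0.13, adjusted p 7.71e-09) and PIR lower (log2 -0.76, SE 0.15, adjusted p 0.00022).

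Conjugation and efflux genes were split between the lines. GSTP1 was 6.19-fold lower in MDA-MB-468 controls at 55.7, 62.2 and 53.8 CPM (log2 -2.63, SE 0.12, adjusted p 1.5e-12), while EPHX1 was 5.15-fold higher, at 52.0, 79.1 and 74.6 against 349, 365 and 346 CPM (log2 2.37, SE 0.19, adjusted p 3.29e-09). NQO1 was 2.10-fold higher (log2 1.07, SE 0.12, adjusted p 2.92e-07). Among the exporters, ABCC1, ABCC2 and ABCC3 were 4.26-fold, 6.08-fold and 3.03-fold lower in MDA-MB-468. ABCC1 stood at 315, 329 and 331 against 74.5, 79.1 and 75.3 CPM (log2 -2.09, SE 0.10, adjusted p 2.72e-12), ABCC2 at 46.4, 48.9 and 39.2 against 7.41, 7.36 and 7.36 (log2 -2.60, SE 0.14, adjusted p 1.43e-11) and ABCC3 at 323, 341 and 372 against 112, 109.6 and 120.1 (log2 -1.60, SE 0.13, adjusted p 4.37e-09). ABCC4 alone of the 4 was higher, 3.02-fold, at 10.8, 8.42 and 6.95 against 28.8, 27.2 and 23.3 CPM (log2 1.60, SE 0.17, adjusted p 1.77e-07). None of the lines' control libraries overlapped in these genes, in a comparison in which 74.2% of all genes passed.

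The glutathione synthesis subunits were split as well: GCLC was lower in MDA-MB-468 controls (log2 -1.43, SE 0.16, adjusted p 4.09e-07) and GCLM was 2.87-fold higher, at 90.7, 97.8 and 89.9 CPM (log2 1.52, SE 0.10, adjusted p 3.61e-10). GSR was higher (log2 1.51, SE 0.11, adjusted p 2.19e-09). Of the thioredoxin genes TXNRD1 was lower (log2 -1.38, SE 0.11, adjusted p 2.26e-09) and PRDX1 higher (log2 0.58, SE 0.11, adjusted p 0.000124). IDH1 led the NADPH genes (log2 1.58, SE 0.14, adjusted p 1.91e-08), of which 4 of 5 were higher in MDA-MB-468, with the calls of PGD and TKT lost as given above. AKR1B10 (ENSG00000198074, GRCh38 chr7:134527592-134541408, plus strand) stood at 22.4, 22.8 and 24.8 CPM in MDA-MB-468 controls against the low HCC1806 values given above and was 14.6-fold higher (log2 3.87, SE 0.25, adjusted p 1.86e-10), and AKR1B1 was 2.36-fold higher (log2 1.24, SE 0.15, adjusted p 1.19e-06). The AKR1B genes of chromosome 7 were thus both higher and the AKR1C genes of chromosome 10 all lower in MDA-MB-468; AKR1B10 shares 14.8% of its 50-base sequences with other genes.

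**Figure D4:**
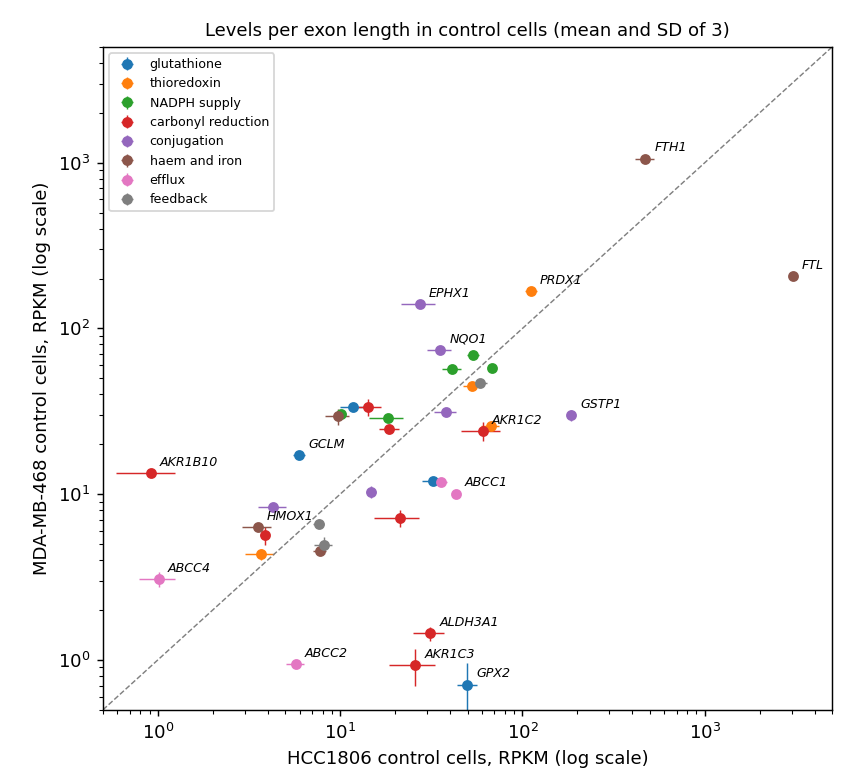
Mean level per length of each of the 39 NRF2 targets in control cells of HCC1806 (x axis) and MDA-MB-468 (y axis), both in RPKM on log scales, with equality as a diagonal line; bars are the SD over 3 libraries. GPX2, AKR1C3, ALDH3A1 and FTL lie far below the diagonal and AKR1B10 and EPHX1 far above it.

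The order of the members by level per length was different in the lines. In HCC1806 controls FTL, FTH1, GSTP1 and PRDX1 were highest and ABCC4 and AKR1B10 lowest, at 1.01 ± 0.228 and 0.918 ± 0.329 RPKM, which differed by less than their spread. In MDA-MB-468 controls FTH1 was followed by FTL, PRDX1 and EPHX1, and GPX2 was lowest at 0.709 ± 0.252 RPKM, with AKR1C3 at 0.934 ± 0.236 and ABCC2 at 0.942 ± 0.00365 next and within the spread of GPX2. NQO1 held place 16 in HCC1806 and 5 in MDA-MB-468, GPX2 places 11 and 39, and AKR1B10 places 39 and 22. HMOX1 held place 37 in HCC1806 controls and 26 in depleted HCC1806 cells.

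PACT-depleted cells, which share no library with the control-cell comparison, differed between the lines in 31 of the 39 genes (74.7% of all genes), 17 higher in MDA-MB-468 (34.1% of all genes) and 14 lower (40.6% of all genes). All 31 also passed between control cells, with the same sign. The same count was not made over all genes, so nothing particular to the members is read from it. GPX2 (log2 -5.53, SE 0.24), AKR1C3 (log2 -4.12, SE 0.27), ALDH3A1 (log2 -3.93, SE 0.25) and FTL (log2 -3.36, SE 0.10) were again lowest in MDA-MB-468, and AKR1B10 (log2 4.36, SE 0.26, adjusted p 6.77e-11) highest. HMOX1 was the member whose value differed most between these comparisons, by 0.88 on the log2 scale. In any member such a gap equals the difference of the depletion effects between the lines. It thus contains the HCC1806 depletion values that led to the choice of the genes, and it was not tested. The level of HMOX1 was 14.1, 21.8 and 24.6 CPM in depleted HCC1806 and 22.0, 16.4 and 20.5 in depleted MDA-MB-468. Between depleted cells its log2 difference was -0.04 (SE 0.18, adjusted p 0.837). For NQO1 it was 1.91 (SE 0.12, adjusted p 1.96e-10).

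Of the conjugation and efflux genes, GSTP1, EPHX1 and the 4 ABCC genes kept the same order of the lines in depleted cells, while UGDH, lower in MDA-MB-468 controls (log2 -0.52, SE 0.11, adjusted p 0.000338), did not differ past the threshold in depleted cells (log2 -0.01, SE 0.11, adjusted p 0.92). MGST1, with -0.28 (SE 0.13) in controls and 0.24 (SE 0.13) in depleted cells, passed in neither in the main model. Between controls it passed in 9 of 17 alternatives. Between depleted cells it passed in 2 of 17, and its value was -0.08 with library size only and -0.095 with a filter at a mean of 50 counts. GSTP1 was at 57.3, 49.8 and 44.3 CPM in depleted MDA-MB-468 and EPHX1 at 37.7, 62.9 and 70.5 CPM in depleted HCC1806 and 326, 297 and 302 in depleted MDA-MB-468. ABCC1 was at 275, 292 and 241 against 79.0, 78.3 and 82.3 CPM, ABCC2 at 33.7, 41.5 and 38.8 against 6.18, 7.28 and 8.18, and ABCC3 at 245, 335 and 313 against 115, 111 and 146. ABCC4 was at 8.38, 5.85 and 6.74 CPM in depleted HCC1806, and AKR1B10 was at 24.3, 20.6 and 23.2 in depleted MDA-MB-468. In GSTP1, EPHX1, the ABCC genes and AKR1B10 the depleted libraries of one line lay wholly above those of the other. Most of these genes were named for their large difference between the lines, and 74.7% of all genes passed between depleted cells. Nothing particular to these genes is read from this separation.

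NFE2L2, KEAP1 and BACH1 passed the threshold after depletion in neither line. The libraries of NFE2L2 and of KEAP1 were lower without overlap in depleted HCC1806 cells (8.17% of all genes). NFE2L2, which encodes NRF2, stood at 183, 205 and 186 CPM in control and 133, 163 and 182 in depleted HCC1806 cells, a log2 difference of -0.27 (SE 0.12). Its lowest library was depleted replicate 1 and its groups did not overlap by a small margin. NFE2L2 (ENSG00000116044, GRCh38 chr2:177227595-177392697, minus strand) lies 1.04 Mb from PRKRA on the same chromosome; what part this position had in its value was not tested. In MDA-MB-468 NFE2L2 stood at 223, 231 and 237 against 278, 231 and 282 CPM (log2 0.19, SE 0.12, adjusted p 1). KEAP1 stood at 46.6, 56.2 and 52.6 against 44.2, 40.9 and 40.4 CPM in HCC1806 (log2 -0.31, SE 0.11), without overlap, and at 242, 218 and 223 against 248, 201 and 208 in MDA-MB-468 (log2 -0.05, SE 0.10, adjusted p 1), with overlap. BACH1, a repressor of HMOX1 and other targets, stood at 75.8, 60.8 and 57.9 against 89.5, 62.0 and 72.7 CPM in HCC1806 (log2 0.20, SE 0.13), with overlap, and at 52.6, 58.8 and 55.2 against 59.9, 56.6 and 65.4 in MDA-MB-468 (log2 0.13, SE 0.13, adjusted p 1). Between control cells KEAP1 was 4.39-fold higher in MDA-MB-468 (log2 2.14, SE 0.11, adjusted p 1.22e-11), NFE2L2 1.20-fold higher (log2 0.27, SE 0.12, adjusted p 0.045), and BACH1 differed by -0.22 (SE 0.13, adjusted p 0.134).

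Other genes of the antioxidant and detoxification pathways, outside the 39, were listed for comparison, and 84 of 87 were tested. In HCC1806 their median was -0.22, and 12 were past the threshold (2.49% of all genes), 9 lower (1.32% of all genes) and 3 higher (1.16% of all genes). This split moved with the fit. With library size only (2.93% of all genes past) 3 were lower and 4 higher, and without control replicate 1 (1.03% of all genes past) there was 1 lower and 3 higher. Those lower included the glutathione peroxidase gene GPX3 (-0.79), PRDX2 (-0.38), the superoxide dismutase gene SOD1 (-0.58), catalase (CAT, -0.46), SULT1A1 (-0.55), ALDH3A2 (-0.61), TRIM16L (-0.47) and NMRAL2P (-0.70). Those higher were the glutathione-degrading CHAC1 (2.01), the thioredoxin inhibitor TXNIP (1.69) and the mitochondrial superoxide dismutase gene SOD2 (0.63). With the replicate block 24 of the 84 were past (7.2% of all genes), 3 higher and 21 lower, and with HCC1806 alone 2 (0.315% of all genes). In MDA-MB-468 0 of the 84 passed in edgeR (0.17% of all genes), 6 had an unadjusted p under 0.05 (5.27% of all genes) and DESeq2 called 1 (0.418% of all genes). The smallest p-values there were of SLC3A2, ME3 and SLC7A11. SLC3A2 stood at 348, 363 and 369 against 484, 446 and 464 CPM (log2 0.37, SE 0.09, adjusted p 0.195), ME3 at 21.1, 18.5 and 18.5 against 25.6, 23.0 and 25.8 (log2 0.36, SE 0.11, adjusted p 0.546) and SLC7A11 at 56.1, 58.6 and 54.0 against 63.1, 73.7 and 79.2 (log2 0.36, SE 0.13, adjusted p 0.729). SLC3A2 and SLC7A11 encode the chains of the cystine importer that supplies glutathione synthesis, ME3 a mitochondrial malic enzyme, and in these 3 genes all depleted libraries lay above all controls.

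Between control cells 74 of the 84 passed (74.2% of all genes), 38 higher (34.2% of all genes) and 36 lower (40.1% of all genes) in MDA-MB-468. The smallest p-values were those of the pseudogene NMRAL2P, the plasma glutathione peroxidase gene GPX3 and the mitochondrial malic enzyme gene ME2. NMRAL2P stood at 90.9, 80.4 and 81.8 CPM in HCC1806 controls and had 3, 10 and 3 counts in MDA-MB-468 controls (log2 -9.12, SE 0.28, adjusted p 2e-14). GPX3 stood at 250.2, 222 and 185 against 6.63, 6.69 and 5.72 CPM (log2 -5.11, SE 0.20, adjusted p 3.9e-13) and ME2 at 13.6, 12.9 and 13.1 against 73.1, 80.4 and 78.1 (log2 2.54, SE 0.10, adjusted p 4.42e-13). The control libraries of the lines did not overlap in these 3 genes, which were named for their small p-values.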

How the data were processed

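Per the submitters' processing notes, Trimmomatic 0.36, STAR 2.5.2b, featureCounts, Subread 1.5.2 and GRCh38 were used; the strand setting and the treatment of reads with several matches are not given in the sources used here. Per the labels, DNase treatment and rRNA removal preceded library construction. The authors deposited raw counts of reads per gene, which are whole numbers without normalization. Genes without a name held 0.0284% of the counts and took part in scaling and the model as any other gene. Names came from the file, and coordinates, overlaps and exon lengths from GENCODE 29, which matched 56898 of 57500 identifiers; 44375 genes had a count.

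From these counts edgeR 4.0.16 (R 4.3.3) computed TMM factors, filterByExpr on the 4 groups kept 27029 genes, and 1 quasi-likelihood model with a coefficient per group was fitted to all 12 libraries (common biological coefficient of variation 0.171). P-values were two-sided, with Benjamini-Hochberg adjustment across those genes. The SE was derived from the log2 fold change and the F statistic. RPKM used TMM-scaled library sizes and the union of exons. Duplicate libraries were looked for with a chi-square test, whose value per degree of freedom was 8.26 to 56.5 between replicates, far above sampling noise. The model was tested on simulated data. Shared sequence was measured as the share of a gene's 50-base sequences found in transcripts of other genes. Figures were drawn with matplotlib 3.10.9 in Python 3.11.15.

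The 39 members, the role groups, the list of 87 further pathway genes, the marker genes and the tests were chosen with earlier results of these data known. Genes named with all values were those past the threshold in MDA-MB-468 or, with none, the 6 with the smallest p there; the 10 with a mean of at least 50 counts and the largest difference in HCC1806; the 10 with the largest difference between control cells; NQO1 and the AKR1B and AKR1C genes; NFE2L2, KEAP1, BACH1 and PRKRA; and of the further pathway genes the 3 with the smallest p in MDA-MB-468 and between control cells. Values of other members are given where their role is described, and the further pathway genes past the threshold in HCC1806 were named after their values were seen; 1 of them is not reported here.

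Same-numbered control and depleted libraries deviated together: over 15918 genes the correlations of their deviations from the group means were 0.533, 0.35 and 0.158 in HCC1806 and 0.189, 0.104 and 0.178 in MDA-MB-468, each over 0.1. Of the differently numbered pairs, HCC1806 control 2 with depleted 3 reached 0.415. By the rule that every same-numbered correlation exceed 0.1, the numbers were taken to pair the libraries. The main model held no term for this pairing, which entered only in the alternatives with the replicate block. The pairing comes from the shared replicate numbers of the labels. Alternatives were DESeq2 1.42.0, RLE factors, library size only, no filter or a filter at a mean of 50 counts, each line alone, the replicate block, stricter thresholds and leaving out each library; the block with each line alone was added after seeing the data.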

Additional observations from a re-analysis of the deposited data

Results flagged for a closer look

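In 3 members every depleted library lay below the mean of its controls in HCC1806 and above it in MDA-MB-468. The log2 fold change in MDA-MB-468 minus that in HCC1806 was 0.34 for ABCC1, 0.64 for ABCC4 and 0.43 for TRIM16. The difference between the lines was not tested, and none of the 3 genes passed the threshold in either line in the main model. In MDA-MB-468 the depleted libraries differed from the control mean by log2 values of 0.05, 0.04 and 0.11 for ABCC1. They differed by 0.265, 0.164 and 0.498 for ABCC4 and by 0.359, 0.083 and 0.204 for TRIM16. This pattern of signs was not counted over all genes. It also uses the HCC1806 depletion values that led to the choice of the members, so nothing is read from it.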

How the results depend on the processing

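No single gene past its threshold changed direction under an alternative, but the balance of higher and lower calls did, as the report gives for the further pathway genes in HCC1806 and for the members between control cells; members near 0 changed sign with another scaling, among them GCLM, SRXN1, AKR1B1, SQSTM1 and OSGIN1 in HCC1806. Of the values of single genes 2849 kept their side of the threshold, 136 lost a call and 61 gained one, and of the counts and medians 175 stayed and 44 moved. In HCC1806 the 18 members past the threshold became 8 with library size only, 1 with the line alone, 5 at an adjusted p under 0.01, 2 at a log2 difference of at least 1 in size, and 8 to 21 without 1 library; the counts without control replicates 1 and 2, depleted replicate 2 and MDA-MB-468 control replicates 1, 2 and 3 were 8, 10, 10, 11, 10 and 11. Their median was -0.36 with library size only and -0.48 to -0.42 without 1 library. The 12 further pathway genes in HCC1806 became 7 with library size only, 20 with no filter, 2 with the line alone, 24 with the replicate block, 4 at an adjusted p under 0.01, 2 at a log2 difference of that size and 4 (without control replicate 1) to 18 (without depleted replicate 1) without 1 library. In MDA-MB-468 the 0 members became 2 with the line alone and 10 with the replicate block and the line alone, and the 0 further genes became 1 with DESeq2, 1 with library size only, 5 with the line alone, 11 with the block and the line alone, and 0 to 1 without 1 library (1 without HCC1806 depleted replicate 1 or 3). Between control cells 22 members and 43 further genes had a log2 difference of at least 1; the members' median of -0.20 became -0.25 with DESeq2 and with RLE factors, -0.45 with library size only, -0.52 with a filter at a mean of 50 counts and -0.23 to -0.12 without 1 library. Between depleted cells the median of 0.12 became -0.20, -0.22 and 0.032 to 0.27 in the last 3 of these. Signs of the medians between depleted cells therefore followed the scaling. The replicate block was fitted for the depletion comparisons only and changed none of their other counts past 1.5 times. Where counts are low, as for GPX2 in MDA-MB-468 and AKR1B10 in HCC1806, depth limits the precision; strand and multiply matching reads limit the AKR1C, ferritin and antisense-overlapped genes.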
